A study of Homo sapiens with 6 samples.

Results

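A set of 10 genes of the BCL2 family was followed in T24 cells, a human bladder cancer cell line, with and without knockdown of UBC9. The genes were chosen by name and role, but with earlier results of these data known. They make up 10 of the 58174 genes listed in each library. They comprise 4 anti-apoptotic genes (MCL1, BCL2L1, BCL2A1 and BCL2) and 6 pro-apoptotic genes, of which 2 encode effectors (BAX and BAK1) and 4 encode BH3-only proteins (PMAIP1, BID, BBC3 and BCL2L11). Poly(A) RNA was sequenced from 3 libraries of cells carrying a control shRNA (shRNA-NC, labelled shRNA_NC) and 3 libraries of cells carrying an shRNA against UBC9 (shRNA-UBC9, labelled shRNA_UBC9). UBC9 is the conjugating enzyme that attaches the small protein SUMO to its targets. Both groups were T24 cells that had stably taken up a lentiviral pLKO.1-type hairpin construct and had been selected with puromycin, the control hairpin being scrambled. A single hairpin sequence against UBC9 is given, so an effect of that hairpin and an effect of UBC9 loss cannot be told apart. The libraries are given as repeats of each sample, and nothing states that they came from separate cultures. The p-values therefore measure the spread between these libraries, which may be technical.

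Proteins of the BCL2 family decide whether the outer membrane of the mitochondrion stays intact. BAX and BAK form the pores that release cytochrome c, the anti-apoptotic members hold BAX, BAK and BH3-only proteins in check, and the BH3-only proteins neutralise the anti-apoptotic members or activate the effectors directly. The BH3-only proteins have preferences: NOXA (PMAIP1) binds chiefly MCL-1 and A1, whereas PUMA (BBC3) and BIM (BCL2L11) bind all anti-apoptotic members. These interactions take place between proteins, and only messenger RNA was measured here.

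Values are RPKM, read counts scaled by the authors to gene length and library size, which allows levels to be compared between genes. The 6 libraries listed 18059 to 19725 genes above 0, and their depths relative to the first shRNA-NC library, recovered from genes with few reads, lay between 0.945 and 1.21. How many reads each library held in all is unknown. The labelled identity was checked with epithelial and urothelial markers. The keratin genes KRT7, KRT8, KRT18 and KRT19 were abundant, with KRT7 reaching 626.7 RPKM, but 7 of the 13 markers stayed below the expression filter, and KRT5 and KRT20 were listed at 0 in every library. Of the 6 tested markers 5 fell in shRNA-UBC9, among them all 4 keratins, KRT7 by 1.11 on the log2 scale. Endothelial and fibroblast markers were low, the highest being CDH5 at up to 3.15 RPKM, which fell by 2.20, and COL1A1 at up to 1.06 RPKM, which rose by 0.95 on that scale. Whether these shifts bear on the BCL2 family genes was not tested. In bulk libraries, fewer cells of a type and less RNA per cell cannot be told apart.

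All 10 genes reached 0.5 RPKM in at least 3 of the 6 libraries and were tested. MCL1, BCL2A1, BAK1 and BBC3 rose in shRNA-UBC9, BCL2 fell, and the other 5 did not pass an adjusted p of 0.05. The 5 called genes are 50.0% of the 10, beside 36.8% of the 12428 genes tested across the transcriptome (18.8% higher and 18.0% lower). The groups did not overlap for 6 of the 10 genes, beside 51.1% across the transcriptome. When a fold change above 1 in size on the log2 scale was also required, BCL2A1 and BBC3, both higher, were differentially expressed genes (DEGs), beside 7.89% of the genes tested (5.2% higher and 2.7% lower). Over the 10 genes the median log2 fold change was 0.15, against 0.005 for the transcriptome. The anti-apoptotic genes had 2 that rose and 1 that fell of 4, and of the 6 pro-apoptotic genes 2 rose and 4 did not pass. By role, the median log2 fold change was 0.47 for the anti-apoptotic and 0.15 for the pro-apoptotic genes.

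**Figure D1:**
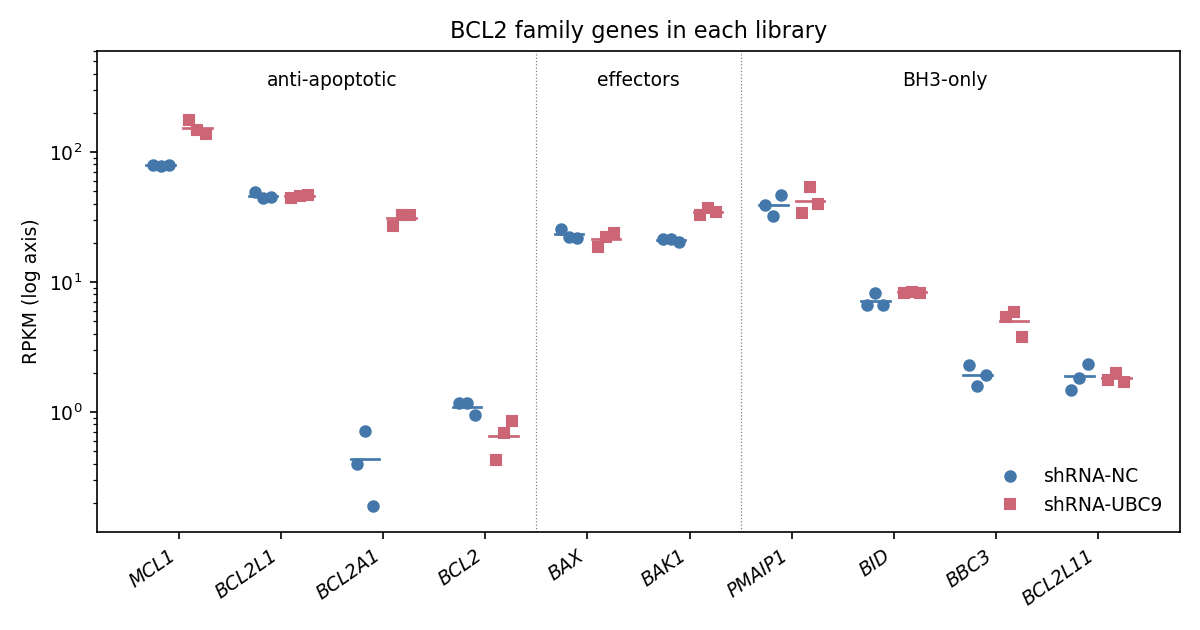
RPKM of the 10 BCL2 family genes (log axis) in each of the 3 shRNA-NC libraries (circles) and 3 shRNA-UBC9 libraries (squares), with group means as short lines and genes ordered by role. BCL2A1 goes from below 1 RPKM in every shRNA-NC library to above 26 RPKM in every shRNA-UBC9 library, MCL1, BAK1 and BBC3 are higher in all 3 shRNA-UBC9 libraries, and BCL2L1, BAX, PMAIP1 and BCL2L11 overlap.

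Among the anti-apoptotic genes, BCL2A1 showed the largest fold change. It encodes A1 (BFL-1), a short-lived BCL2 relative known mainly from blood cells and as a target of NF-kB. BCL2A1 (GRCh38, chr15:79960892-79971196, minus strand) was listed at 0.400, 0.716 and 0.190 RPKM in the shRNA-NC libraries and at 26.7, 32.8 and 32.8 RPKM in the shRNA-UBC9 libraries. The lowest shRNA-UBC9 value thus lay far above the highest shRNA-NC value. The mean went from 0.435 ± 0.265 to 30.8 ± 3.55 RPKM (SD, n = 3 each), a ratio of 70.7. The log2(RPKM + 0.1) scale understates changes from a low level, and on it the log2 fold change was 5.97 (SE 0.32, adjusted p = 1.6e-05). With a pseudocount of 1 in place of 0.1 it was 4.48. BCL2A1 passed the expression filter through the group in which it is high, since only 1 shRNA-NC library reached 0.5 RPKM.

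The low shRNA-NC values of BCL2A1 rest on few reads. With the relative depths of the libraries, its RPKM values stand in whole-number proportions, with the smallest set at 13, 27 and 7 reads in shRNA-NC against 1047, 1259 and 1008 reads in shRNA-UBC9 (largest deviation from a whole number 0.0029). The true counts could be a multiple of these. Since BCL2A1 is abundant in leukocytes, 8 leukocyte markers were examined beside it. Of these, 6 stayed below the filter, MS4A1 was listed at 0 in every library, and the summed level of the 8 markers ranged from 0.675 to 1.42 RPKM in shRNA-NC and from 0.792 to 1.79 RPKM in shRNA-UBC9. The highest single value was 0.786 RPKM, for LYZ. PTPRC, which encodes the pan-leukocyte protein CD45, CD3E and LYZ were all listed at 0 in the first shRNA-NC library and in the third shRNA-UBC9 library, in which BCL2A1 stood at 0.400 and 32.8 RPKM. CD14, a monocyte marker, was listed at 0.657, 0.260 and 0.642 RPKM in shRNA-NC and at 0.706, 0.692 and 0.752 RPKM in shRNA-UBC9, highest in the same shRNA-UBC9 library. The part of other cell types in the BCL2A1 level was not tested.

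To show the start of the 2 DEGs, the 250 bases before the transcription start of BCL2A1 and of BBC3 are printed here from RefSeq (GRCh38.p14), 5′ to 3′ on the strand of the gene. The BCL2A1 window is chr15:79971197-79971446 and the BBC3 window chr19:47232668-47232917, both on the minus strand. The capitals mark matches to 3 of 4 short motifs searched on both strands, namely TGATGNAA (the C/EBP-ATF composite core), a pair of GAAA copies 2 bases apart (an interferon-response type element) and TGANTCA (an AP-1 type element).
BCL2A1: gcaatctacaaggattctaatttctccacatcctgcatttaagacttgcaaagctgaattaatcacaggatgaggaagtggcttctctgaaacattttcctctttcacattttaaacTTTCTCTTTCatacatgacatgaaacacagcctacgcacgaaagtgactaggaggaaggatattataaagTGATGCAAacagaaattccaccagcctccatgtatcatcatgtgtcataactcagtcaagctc
BBC3: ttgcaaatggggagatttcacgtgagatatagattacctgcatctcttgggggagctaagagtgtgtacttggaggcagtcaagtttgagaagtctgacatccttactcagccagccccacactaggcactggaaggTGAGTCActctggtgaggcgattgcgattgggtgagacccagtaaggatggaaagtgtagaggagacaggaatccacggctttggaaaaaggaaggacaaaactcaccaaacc
In the BCL2A1 window TGATGCAA lies 63 to 56 bases before the start, and the match to the GAAA pair, read on the other strand as TTTCTCTTTC, lies 133 to 124 bases before it. In the BBC3 window TGAGTCA lies 113 to 107 bases before the RefSeq start. The annotations place the start of BBC3 differently, and part of this window lies inside the gene as GENCODE gives it. TGATGNAA occurs in 3.14%, the GAAA pair in 3.02% and TGANTCA in 6.57% of the 35116 windows of this length in the RefSeq table. The fourth motif, GGG followed after 5 bases by CC (the NF-kB core), occurs in 54.4% of all windows and in 6 of the 9 family genes with a window (BAK1, BBC3, BCL2, BCL2L11, BID and PMAIP1). The BCL2A1 window holds no match to these letters. A match describes the letters only, and MCL1 had no entry.

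MCL1, which encodes a short-lived anti-apoptotic protein needed by many epithelial cells, was the most abundant of the 10 genes in both groups. MCL1 (chr1:150560895-150579738, minus strand) was measured at 79.5, 77.7 and 79.4 RPKM in shRNA-NC and at 175.4, 148.6 and 137.8 RPKM in shRNA-UBC9. The control libraries were nearly equal, and every shRNA-UBC9 library lay above them. The mean went from 78.9 ± 0.979 to 153.9 ± 19.3 RPKM (SD, n = 3 each), a ratio of 1.95, and the log2 fold change was 0.96 (SE 0.10, adjusted p = 0.00037). Without the third shRNA-UBC9 library the log2 fold change was 1.03, past the fold threshold of a DEG. In RPKM, MCL1 gained 75.1 and BCL2A1 gained 30.3 on average. The genes that share exon bases with MCL1, ADAMTSL4 and ADAMTSL4-AS1, were listed at no more than 0.435 RPKM.

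BCL2L1, whose main product is BCL-XL, was the second most abundant anti-apoptotic gene. BCL2L1 (chr20:31664452-31723989, minus strand) stood at 49.0, 44.0 and 44.6 RPKM in shRNA-NC and at 43.8, 45.8 and 46.6 RPKM in shRNA-UBC9. The groups overlapped, with means of 45.9 ± 2.72 and 45.4 ± 1.41 RPKM (SD, n = 3 each). The log2 fold change was -0.01 with a 95% interval of -0.20 to 0.17 (adjusted p = 0.908). RPKM per gene does not separate the BCL-XL transcript from the pro-apoptotic BCL-XS splice form. MCL1 stood at 1.62 to 1.78 times the level of BCL2L1 in the shRNA-NC libraries and at 2.96 to 4.0 times its level in the shRNA-UBC9 libraries.

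BCL2, the founding member of the family and the target of venetoclax, was low throughout. BCL2 (chr18:63123346-63320128, minus strand) was listed at 1.16, 1.18 and 0.949 RPKM in shRNA-NC and at 0.424, 0.690 and 0.849 RPKM in shRNA-UBC9. The groups did not overlap, although the highest shRNA-UBC9 value came close to the lowest shRNA-NC value. The mean went from 1.10 ± 0.129 to 0.655 ± 0.215 RPKM (SD, n = 3 each), and the log2 fold change of -0.70 (SE 0.24) passed narrowly with an adjusted p of 0.0484. The call was lost without any 1 of 5 of the 6 libraries (all but the third shRNA-UBC9 library), with log2 fold changes between -0.80 and -0.46. It was also lost with the replicate number as a block (adjusted p = 0.0908).

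Of the effectors, BAK1 rose and BAX did not pass the test. BAK1 (chr6:33572547-33580293, minus strand), which encodes the effector that resides on mitochondria, stood at 21.3, 21.2 and 20.4 RPKM in shRNA-NC and at 32.8, 36.7 and 34.7 RPKM in shRNA-UBC9. All 3 shRNA-UBC9 libraries lay above all 3 controls. The mean went from 21.0 ± 0.501 to 34.8 ± 1.94 RPKM (SD, n = 3 each), a ratio of 1.66, and the log2 fold change was 0.73 (SE 0.08, adjusted p = 0.00046). Its pseudogene copies BAK1P1 and BAK1P2 were listed at 0.

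BAX (chr19:48954815-48961798, plus strand), which encodes the effector that moves from the cytosol to mitochondria, was measured at 25.7, 22.1 and 21.9 RPKM in shRNA-NC. In shRNA-UBC9 it stood at 18.4, 22.3 and 23.9 RPKM. The groups overlapped, and the log2 fold change was -0.11 with a 95% interval of -0.38 to 0.16 (adjusted p = 0.496). The level of BAK1 relative to BAX ranged from 0.829 to 0.961 in shRNA-NC and from 1.45 to 1.78 in shRNA-UBC9, so that BAX was the more abundant effector transcript in each control library and BAK1 in each knockdown library.

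Among the BH3-only genes, BBC3 rose. BBC3 (chr19:47220822-47232766, minus strand) encodes PUMA, a known target of p53 that is also induced under stress of the endoplasmic reticulum. It stood at 2.31, 1.58 and 1.91 RPKM in shRNA-NC and at 5.39, 5.86 and 3.74 RPKM in shRNA-UBC9. The groups did not overlap, and the third shRNA-UBC9 library was the lowest of its group. The mean went from 1.93 ± 0.366 to 5.0 ± 1.11 RPKM (SD, n = 3 each), a ratio of 2.59, and the log2 fold change was 1.32 (SE 0.19, adjusted p = 0.0015). Its smallest whole-number reads were 174, 138 and 163 in shRNA-NC and 491, 522 and 267 in shRNA-UBC9.

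PMAIP1 (chr18:59899996-59904305, plus strand) encodes NOXA and was the most abundant BH3-only gene. It was measured at 39.0, 31.9 and 46.9 RPKM in shRNA-NC and at 34.0, 53.4 and 39.4 RPKM in shRNA-UBC9. The libraries of both groups were interleaved and spread widely, with means of 39.3 and 42.3 RPKM. The log2 fold change was 0.10 with a 95% interval of -0.33 to 0.53 (adjusted p = 0.714). NOXA binds chiefly MCL-1 and A1. MCL1 relative to PMAIP1 ranged from 1.69 to 2.44 in shRNA-NC and from 2.78 to 5.16 in shRNA-UBC9, without overlap. BCL2A1 relative to PMAIP1 ranged from 0.00405 to 0.0224 in shRNA-NC and from 0.614 to 0.833 in shRNA-UBC9.

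BID (chr22:17734138-17774770, minus strand) encodes the protein that caspase-8 cuts to link death receptors to mitochondria. It stood at 6.68, 8.18 and 6.68 RPKM in shRNA-NC and at 8.28, 8.35 and 8.26 RPKM in shRNA-UBC9. The groups did not overlap, but the second shRNA-NC library lay just under the shRNA-UBC9 values. The log2 fold change was 0.21 with a 95% interval of -0.02 to 0.45 and did not pass (adjusted p = 0.138). Without the second shRNA-NC library it was 0.31 and passed (adjusted p = 0.0353).

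BCL2L11 (chr2:111119378-111168444, plus strand) encodes BIM, which binds every anti-apoptotic member. It was listed at 1.48, 1.83 and 2.35 RPKM in shRNA-NC and at 1.77, 1.98 and 1.70 RPKM in shRNA-UBC9. The shRNA-UBC9 values all fell within the range of the controls. The log2 fold change was -0.03 with a 95% interval of -0.42 to 0.36 (adjusted p = 0.912). BCL2L11 shares exon bases with MIR4435-2HG on the opposite strand, listed at 2.57 to 3.66 RPKM, and since counting by strand is not stated, reads of the shared bases cannot be assigned.

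**Figure D2:**
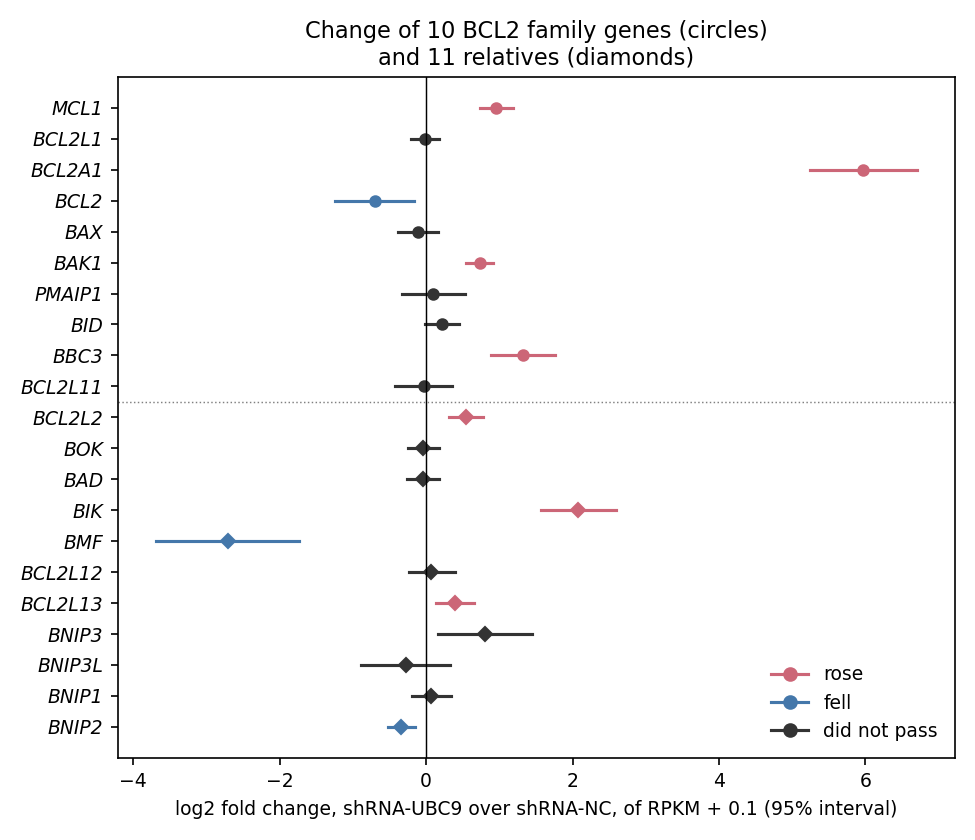
Log2 fold change (shRNA-UBC9 over shRNA-NC, RPKM + 0.1) with its 95% interval for the 10 genes (circles, above the dotted line) and 11 tested relatives (diamonds). BCL2A1 lies farthest to the right at 5.97, and BMF farthest to the left at -2.71, while the intervals of BCL2L1, BAX, PMAIP1, BID and BCL2L11 include 0.

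The order of levels changed mainly through BCL2A1. In shRNA-NC it ran MCL1, BCL2L1, PMAIP1, BAX, BAK1, BID, BBC3, BCL2L11, BCL2 and BCL2A1, with overlapping ranges only for the neighbours BCL2L1 and PMAIP1 and the neighbours BBC3 and BCL2L11. In shRNA-UBC9 it ran MCL1, BCL2L1, PMAIP1, BAK1, BCL2A1, BAX, BID, BBC3, BCL2L11 and BCL2, with overlap of BCL2L1 with PMAIP1 and of PMAIP1 with BAK1. BCL2A1 thus moved from rank 10 to rank 5. As a share of the summed RPKM of the 10 genes, BCL2A1 made up 0.200% ± 0.129 in shRNA-NC and 8.95% ± 1.15 in shRNA-UBC9 (SD, n = 3 each). The share of MCL1 was 35.7% ± 1.01 and 44.7% ± 5.05, and that of BCL2L1 was 20.8% ± 0.907 and 13.2% ± 0.814.

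The levels were then summed by role in each library, as a description without a test. The anti-apoptotic sum was 130.0, 123.6 and 125.1 RPKM in shRNA-NC and 246.3, 227.9 and 218.0 RPKM in shRNA-UBC9. The pro-apoptotic sum was 96.4, 86.7 and 100.1 RPKM in shRNA-NC and 100.7, 128.7 and 111.7 RPKM in shRNA-UBC9. Neither sum overlapped between groups, although the highest control and the lowest knockdown library nearly met for the pro-apoptotic sum. The ratio of the group means was 1.83 for the anti-apoptotic and 1.20 for the pro-apoptotic sum. Within the latter, the effectors ranged from 42.3 to 46.9 RPKM in shRNA-NC and from 51.2 to 59.0 RPKM in shRNA-UBC9, whereas the BH3-only genes overlapped at 43.5 to 57.8 and 49.4 to 69.6 RPKM.

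The ratio of the anti-apoptotic to the pro-apoptotic sum was 1.35, 1.43 and 1.25 in shRNA-NC and 2.45, 1.77 and 1.95 in shRNA-UBC9. Every knockdown library lay above every control. On the log2 scale the ratio was 0.42 ± 0.0954 in shRNA-NC and 1.02 ± 0.241 in shRNA-UBC9 (SD, n = 3 each), a difference of 0.60. The difference was 0.43 without MCL1 and, in a comparison added after the data were seen, 0.40 without BCL2A1. With the mean of the log2 values in place of the sum, which gives low genes the same weight as abundant ones, the difference was 1.18. That value rested on BCL2A1, since without it, again added after the data were seen, the difference of the means turned to -0.29. With every gene included, the direction for the roles as a whole was thus the same under both weightings. Without BCL2A1 it depended on the weighting, at 0.40 for the ratio of sums and -0.29 for the mean of log2 values.

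**Figure D3:**
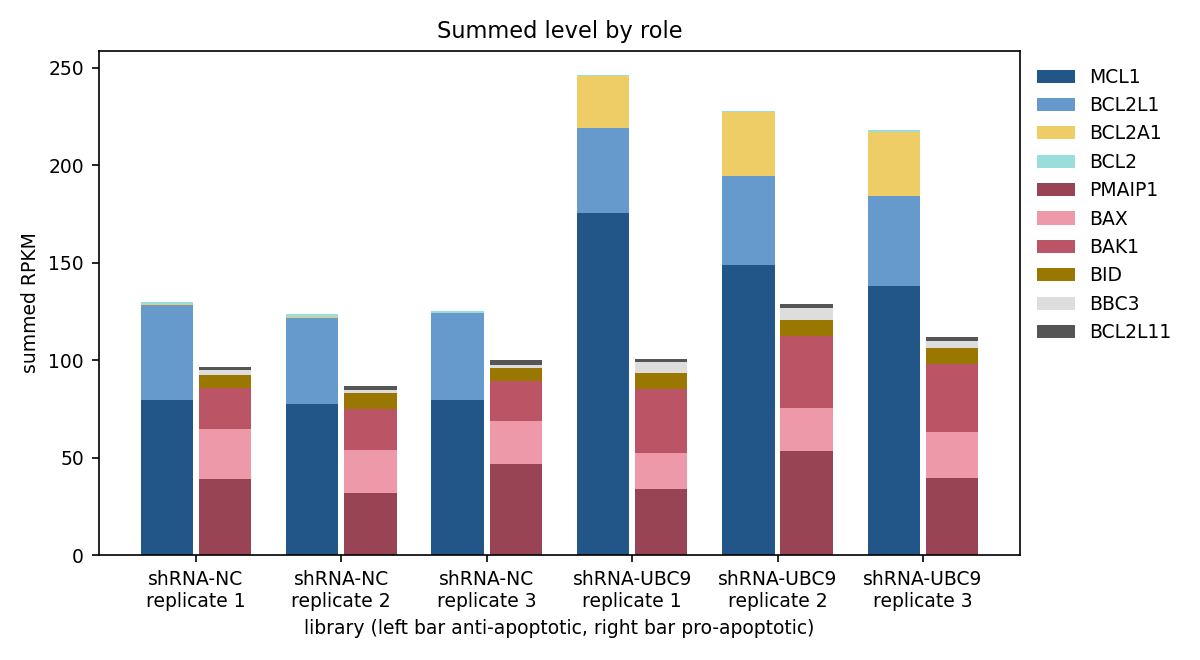
Summed RPKM of the 4 anti-apoptotic genes (left bar) and the 6 pro-apoptotic genes (right bar) in each library, stacked by gene from 0. The left bars stand at 123.6 to 130.0 RPKM in shRNA-NC and at 218.0 to 246.3 RPKM in shRNA-UBC9, where MCL1 is taller and BCL2A1 becomes visible, and the right bars run from 86.7 to 100.1 and from 100.7 to 128.7 RPKM.

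The genes whose pattern over the 6 libraries was most like that of the 2 DEGs were named by Pearson's r of log2(RPKM + 0.1), as a description over libraries that share their groups. For BCL2A1 these included HBEGF (r = 0.9990) and IKBKE (r = 0.9982), with log2 fold changes of 2.79 and 1.37. HBEGF, which encodes a ligand of the EGF receptor, stood at 7.0, 8.75 and 5.24 RPKM in shRNA-NC and at 41.1, 51.5 and 51.6 RPKM in shRNA-UBC9, with the third control library lowest and the second control library highest of the controls, as for BCL2A1. For BBC3 they were RP11-37B2.1 (r = 0.9970), TMEM185A (r = 0.9954) and ZNF783 (r = 0.9940), with log2 fold changes of 1.20, 0.35 and 0.42.

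A further 15 relatives outside the 10 genes were examined, of which 11 passed the filter (BCL2L10, HRK, BCL2L14 and BCL2L15 did not). BCL2L2, BIK and BCL2L13 rose, BMF and BNIP2 fell, and 6 did not pass, with a median log2 fold change of 0.07. The called relatives are 45.5% of the 11, beside 36.8% of all tested genes. BIK, a BH3-only gene whose product sits on the endoplasmic reticulum, went from 0.703, 1.12 and 0.713 RPKM to 4.28, 4.56 and 2.86 RPKM, a log2 fold change of 2.08 (SE 0.22, adjusted p = 0.00041). BMF, a BH3-only gene linked to loss of cell attachment, went the other way, from 2.58, 2.24 and 6.72 RPKM to 0.698, 0.427 and 0.260 RPKM (log2 fold change -2.71, SE 0.43, adjusted p = 0.0021). The third shRNA-NC library was the highest for BMF, and the groups did not overlap. The BH3-only genes BBC3 and BIK thus rose while BMF fell. PMAIP1, the most abundant BH3-only gene of the 10, did not pass (0.10), nor did BID (0.21) and BCL2L11 (-0.03).

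BCL2L2, which encodes the anti-apoptotic BCL-W, went from 12.3, 12.2 and 12.3 RPKM to 20.2, 17.5 and 16.1 RPKM (log2 fold change 0.54, adjusted p = 0.0044). It shares exon bases with the read-through gene BCL2L2-PABPN1, listed at 3.55 to 8.72 RPKM, so that its own level is uncertain. BCL2L13, a mitochondrial receptor of mitophagy, had a log2 fold change of 0.40 (adjusted p = 0.0240), and BNIP2 one of -0.34 (adjusted p = 0.0125). The call of BCL2L13 was lost without any 1 of the 3 shRNA-NC libraries or the second shRNA-UBC9 library (0.29 to 0.43), and that of BNIP2 without the third shRNA-NC library (-0.31). BNIP3, induced by low oxygen, stood at 15.7, 19.0 and 18.9 RPKM against 51.4, 27.9 and 21.1 RPKM and did not pass (log2 fold change 0.81, adjusted p = 0.0526). It passed without the first shRNA-UBC9 library (0.45) and without the third (1.09). Its relative BNIP3L did not pass (-0.28) except without the first shRNA-UBC9 library (-0.62). BOK, BAD, BCL2L12 and BNIP1 had log2 fold changes between -0.04 and 0.07 and did not pass.

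In a list of 19 genes of the mitochondrial apoptosis machinery, which holds outer membrane channels and initiator caspases as well as factors acting after cytochrome c release, 4 rose, 4 fell and 11 did not pass, with a median log2 fold change of 0.02. HTRA2, a protease released from mitochondria, fell by 1.10 on the log2 scale (adjusted p = 0.00034). APAF1, the scaffold of the apoptosome, fell by 0.89 (adjusted p = 0.00072), and CASP2 by 0.82 (adjusted p = 0.0035).

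Genes of pathways linked to the family, regulators and targets alike, were counted in the same fit. Of 15 NF-kB survival genes, 12 rose, 1 fell and 2 did not pass, with a median log2 fold change of 1.66. TNFAIP3, which encodes the NF-kB inhibitor A20, rose by 3.42 (SE 0.33, adjusted p = 0.00026), from 9.34, 10.6 and 3.76 RPKM to 77.0, 79.6 and 77.0 RPKM. SOD2, the mitochondrial superoxide dismutase, rose by 2.60, BIRC3, an inhibitor of apoptosis protein, by 2.32, and IER3 by 2.08 on the same scale. In the third shRNA-NC library TNFAIP3, SOD2 and BIRC3 were at their lowest, as was BCL2A1. The BCL2A1 value there rests on few reads (smallest whole number 7), and a link between these genes was not tested.

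Of 15 ATF4 and CHOP stress genes, 8 rose and 7 did not pass, with a median of 0.57. SESN2 rose by 1.46, ERN1, the stress sensor IRE1, by 1.40, PPP1R15A by 1.34 and DDIT4 by 1.29. Of 22 genes for p53 and its targets, 6 rose, 4 fell and 12 did not pass, with a median of 0.09. GDF15 rose by 2.24, the cell-cycle inhibitor CDKN1A by 2.07 and SESN2, also on the stress list, by 1.46, while the death receptor gene FAS fell by 1.19 (adjusted p = 0.0316). The FAS call was lost without any 1 of 5 of the 6 libraries (all but the first shRNA-UBC9 library), with log2 fold changes between -1.30 and -0.86.

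Of 22 tested genes for turnover and control of BCL2 family proteins, 4 rose, 5 fell and 13 did not pass, with a median of -0.06. FOXO1, a transcription factor known to act on BCL2L11, fell by 1.02 (adjusted p = 0.0038), FBXO10, a ubiquitin ligase subunit that targets BCL2, by 0.53 (adjusted p = 0.0101), and BAG1, a BCL2-binding co-chaperone, by 0.46 (adjusted p = 0.0064). BCAP31, a protein of the endoplasmic reticulum that binds BCL2 and BCL-XL, rose by 0.56 (adjusted p = 0.0014). Shares of called genes of 40.9% for this list and 42.1% for the mitochondrial list lie near the 36.8% of all tested genes, beside 45.5% for p53 and its targets, 53.3% for the stress genes and 86.7% for the NF-kB genes.

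**Figure D4:**
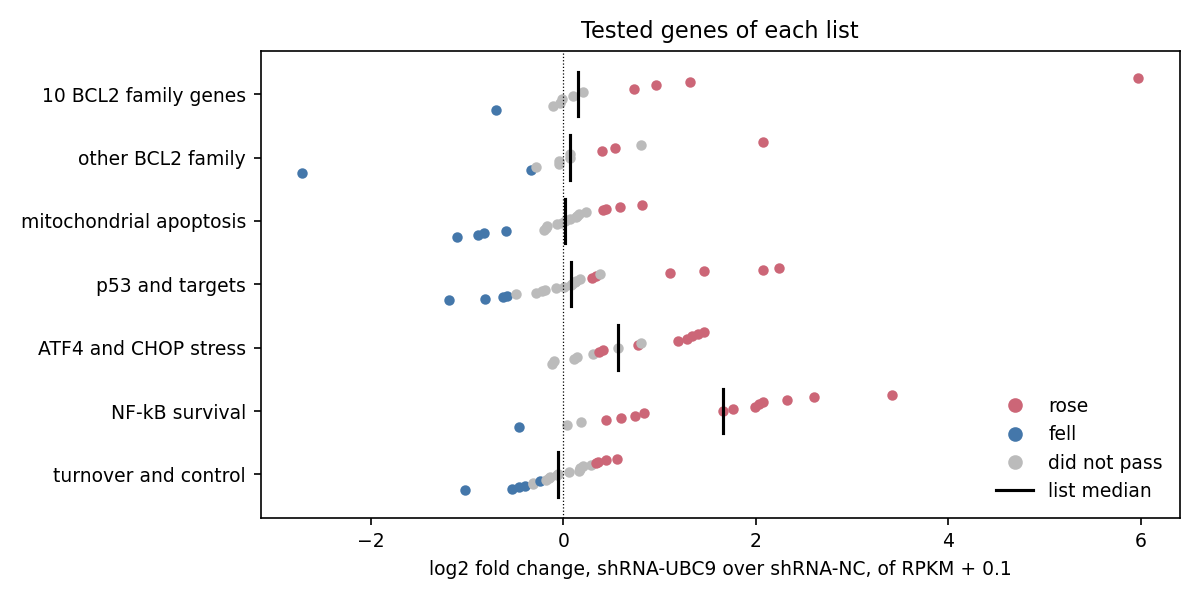
Log2 fold change (shRNA-UBC9 over shRNA-NC, RPKM + 0.1) of each tested gene in the 10-gene family set and 6 lists, coloured by call, with the list median as a vertical line. The medians are 0.15 for the 10 genes, 1.66 for the NF-kB survival genes, 0.57 for the ATF4 and CHOP stress genes and between -0.06 and 0.09 for the other 4 lists.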

How the data were processed

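RNA-seq of T24 cells was analysed for 3 shRNA-NC and 3 shRNA-UBC9 libraries, grouped by their labels. The deposited values are RPKM per gene, made by the authors from trimmed reads that the CLC Biomedical Genomics Workbench had placed on GRCh38 (hg38 in the submitters' processing notes). The annotation release, multi-mapping and counting by strand are not given in the sources used here. RPKM is scaled to the total of mapped reads, so a change in RNA composition can shift other genes.

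RPKM + 0.1 was log2-transformed, genes with at least 0.5 RPKM in at least 3 libraries were kept, and limma 3.58.1 (R 4.3.3) fitted the difference between groups (intensity trend, Benjamini-Hochberg adjustment over all 12428 genes). A gene passed at an adjusted p below 0.05. Adjusted p-values come from this limma fit or, where an alternative is named, from limma under that alternative. An exact two-sided permutation test of 3 against 3 cannot go below p = 0.1 and could pass no gene. The fit was tested on simulated data. Replicate numbers were not used to pair the libraries in the main fit. Coordinates are from GENCODE 44 and promoter windows from RefSeq, matched by symbol for 9 of 10 genes.

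The 10 genes and all lists were chosen with earlier results of these data known. Named outside the 10 were all tested relatives, up to 4 called genes per list with the largest changes, and the 3 genes most like each of the 2 members that changed most. Cell markers were named by list. Some genes that this rule names, and the level of the targeted gene, are not reported here. The alternatives were other pseudocounts, filters and scalings, no trend, a replicate block and leaving out each library.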

Additional observations from a re-analysis of the deposited data

How the results depend on the processing

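Of 302 comparisons of the main results with an alternative, 278 kept their direction and their side of the threshold or stayed within 1.5 times the count. MCL1, BCL2A1, BAK1 and BBC3 kept theirs under every alternative in which they were tested. BCL2 kept its direction but lost its call with a pseudocount of 0.01 (-0.79, adjusted p = 0.0517) and with every gene above 0 tested (-0.70, adjusted p = 0.113), and without single libraries it ranged from -0.89 to -0.46. With an RPKM of at least 1 required in every library, BCL2 and BCL2A1 were no longer tested, so 3 of the 10 genes were called in place of 5, and 1 was a DEG in place of 2. Without the third shRNA-UBC9 library, 3 were DEGs, with MCL1 added. Over all genes, the DEGs went from 981 to 552 under that filter and to 552 with a pseudocount of 1. Leaving out 1 library gave 3034 to 4183 called genes in place of 4576, and 3 to 7 called relatives in place of 5, the lowest of both without the third shRNA-NC library. The log2 fold changes near 0 changed sign in this way for BCL2L1 (-0.04 to 0.03), PMAIP1 (-0.08 to 0.24), BCL2L11 (-0.18 to 0.13), BAD (-0.11 to 0.02), BCL2L12 (-0.04 to 0.17), BNIP1 (-0.03 to 0.14) and BOK (-0.08 to 0.03), and none of these passed, while BID ranged from 0.16 to 0.31. The difference between groups in the anti-apoptotic against the pro-apoptotic level was 0.60 for the log2 ratio of sums, 0.40 for that ratio without BCL2A1, 1.18 for the mean of log2 values and -0.29 for that mean without BCL2A1, which turned its direction. Both comparisons without BCL2A1 were chosen after seeing the data.

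Deviations from the group mean of libraries with the same replicate number had an r of -0.367, 0.073 and -0.17. With 3 libraries per group, these values cannot settle whether libraries of the same number were handled together. The largest r between the groups was 0.526, for the first shRNA-NC and the third shRNA-UBC9 library. Those libraries also had the lowest relative depths (1.0 and 0.945) and the fewest genes above 0 (18059 and 18254). In both, PTPRC, CD3E and LYZ were listed at 0. Whether they were handled together was not tested. With the replicate number as a block, BCL2 lost its call (-0.70, adjusted p = 0.0908), 4 of the 10 genes were called, and 3374 genes were called over the transcriptome. With smallest whole-number reads of 13, 27 and 7, the level of BCL2A1 in shRNA-NC is imprecise, and the true counts are unknown. For BCL2 these reads were 409, 481 and 378 in shRNA-NC and 180, 286 and 282 in shRNA-UBC9.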
